A study of Saccharomyces cerevisiae with 103 samples.

Results

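Deletion of XRN1 was examined in SK1 yeast growing vegetatively in rich medium. The libraries labelled for xrn1Δ/Δ cells in vegetative growth were set against those of wild-type cells grown and sampled at the same stage, which took 6 of the 103 samples of the series. Each strain had 1 RNA-seq library, 1 RNA library of another protocol (ZeroRNA) and 1 library of poly(A) tags (mPAT). RNA-seq and ZeroRNA both relied on depletion of ribosomal RNA. SK1 is a laboratory strain of Saccharomyces cerevisiae that sporulates readily, and the genotypes are labelled xrn1delta/delta and WT, so both copies of XRN1 were removed, and the labels name no other allele. Both cultures were actively growing in YPD 2%, a medium of yeast extract, peptone and glucose, and received no agent. The labels do not say how many independent deletion clones were used. With 1 library of each strain per assay no difference had a replicate check and no test was made. Differences are therefore described as higher or lower, and any interval covers counting error only.

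Xrn1 is the main cytoplasmic exonuclease that degrades mRNA from its 5' end. In the usual order of mRNA decay the poly(A) tail is first shortened by the Ccr4-Not complex, whose nucleases are Ccr4 and Pop2, and by Pan2-Pan3. The cap is then removed by Dcp2 with its activators Dhh1, Pat1, Edc3 and the Lsm1 to Lsm7 ring, and Xrn1 digests the body of the message. Deadenylated and decapped mRNA is known to build up in cells without Xrn1. The nuclear relative Rat1 and the exosome, which works from the 3' end, remain in such cells.

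XRN1 (YGL173C, chromosome VII, 175527 to 180113, minus strand, R64 assembly) had 2 RNA-seq counts in the xrn1Δ/Δ library and 299 in the wild-type library. In ZeroRNA it had 0 counts in xrn1Δ/Δ and 227 in wild type, which is at least 131-fold lower when the 0 is put at a floor of 3 counts. In the tag libraries it had 12 tags in xrn1Δ/Δ and 834 in wild type. The labels of all 6 libraries therefore matched the level of the deleted gene. Total counts were 668713 in xrn1Δ/Δ and 1237639 in wild type for RNA-seq, 434140 and 494700 for ZeroRNA, and 6027501 and 8926553 for tags. The make-up of the libraries differed. Genes of cytosolic ribosomal proteins took 20.0% of RNA-seq counts in xrn1Δ/Δ and 29.1% in wild type, and 34.1% of tags in xrn1Δ/Δ and 54.3% in wild type. Counts were scaled with the trimmed mean of M values (TMM), which put the median log2 difference of all genes at -0.11 in RNA-seq, -0.02 in ZeroRNA and 0.03 in tags. With library totals alone those medians were 0.62, 0.89 and 1.45, so a level given here is relative to the bulk of genes and says nothing of the amount of mRNA per cell. As a bulk measure it also cannot tell fewer cells of a type from less RNA per cell.

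Poly(A) tails were shorter across most of the transcriptome in xrn1Δ/Δ cells. The deposited mean tail of a gene was used where it rested on 20 or more tags in both libraries, which held for 5096 of 6692 genes. The median over these genes was 23.2 nt in xrn1Δ/Δ and 37.8 nt in wild type, and the median of the per-gene differences was -14.67 nt. Tails were shorter by 5 nt or more for 4651 genes (91.3%) and longer by 5 nt or more for 7 genes (0.137%). They were shorter by 10 nt or more for 3847 genes, and 107 genes had a longer mean tail by any amount. The quartiles over genes ran from 20.7 to 25.5 nt in xrn1Δ/Δ and from 34.0 to 41.3 nt in wild type, so the quartile ranges did not overlap. The spread was also narrower, with an SD over genes of 3.77 nt in xrn1Δ/Δ and 6.22 nt in wild type. Genes just inside the tag minimum (20 to 24 tags in the poorer library, 124 genes) had medians of 22.9 nt in xrn1Δ/Δ and 39.5 nt in wild type. Genes just outside it (15 to 19 tags, 155 genes) had 23.3 nt in xrn1Δ/Δ and 36.6 nt in wild type.

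**Figure D1:**
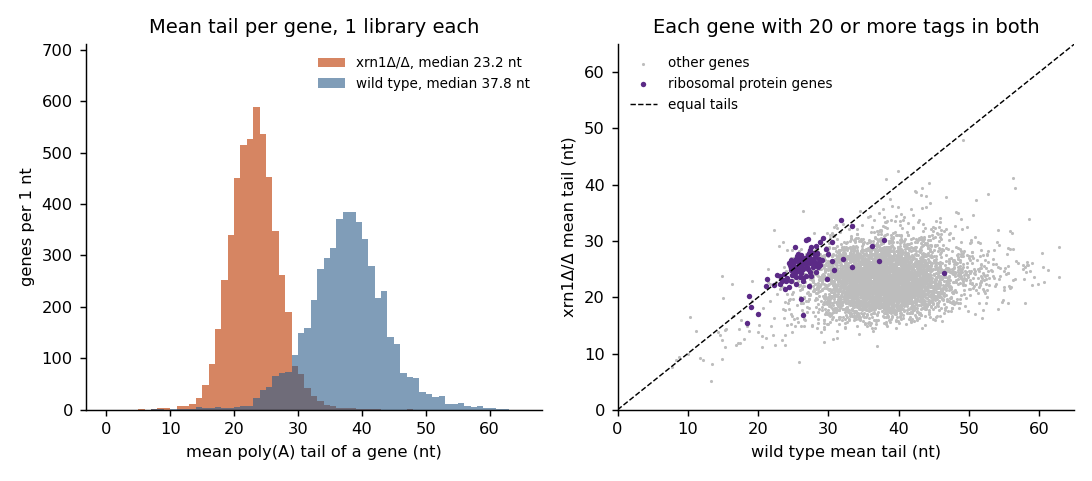
Left, number of genes (per 1 nt) at each mean poly(A) tail length in nt in the xrn1Δ/Δ and wild-type vegetative libraries, with medians of 23.2 and 37.8 nt. Right, mean tail in xrn1Δ/Δ against that in wild type, 1 point per gene (5096 genes, 1 library per strain), with ribosomal protein genes in purple close to the dashed line of equal tails and most other genes below it.

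A yardstick for such a difference came from wild-type-like libraries of other experiments in the same medium. The vegetative wild-type library differed from the wild-type control of the degron experiment by a median of -2.26 nt, and 25.4% of genes were shorter by 5 nt or more. The Xrn1 degron strain before auxin differed from that same control by -1.52 nt, with 20.9% of genes shorter by 5 nt or more. Set against the degron experiment's control in place of its own wild type, the xrn1Δ/Δ library had a median difference of -16.63 nt, with 93.0% of 4329 genes shorter by 5 nt or more. The tail difference was thus at least as large against a second wild-type library.

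Individual genes show how far the tails differed. RRN10, a subunit of an RNA polymerase I initiation factor, had a mean tail of 26.2 nt in xrn1Δ/Δ against 57.0 nt in wild type, the largest loss among genes with 100 or more tags in both. TGS1, which trimethylates the caps of small nuclear RNAs, had 22.4 nt in xrn1Δ/Δ against 52.4 nt in wild type. YHC1, a U1 snRNP protein, had 21.8 nt against 51.5 nt. ACM1, an inhibitor of the anaphase-promoting complex, had 18.9 nt against 48.5 nt, and BNI5, which acts at the septin ring, had 18.1 nt against 47.5 nt. DAS2 had 21.4 nt against 51.0 nt, YDL241W had 24.7 nt against 55.0 nt and YBR099C had 20.3 nt against 50.1 nt. In xrn1Δ/Δ these 8 genes had tails between 18.1 and 26.2 nt, close to the median of all genes. RNA levels of the 8 differed little or were higher in xrn1Δ/Δ, from -0.10 for BNI5 to 2.11 for YDL241W in log2 RNA-seq.

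The length of a tail in xrn1Δ/Δ carried little trace of its length in wild type. To avoid sorting genes by a library that enters the difference, genes were divided into 5 equal bins of their tail in the degron experiment's wild-type control. From the bin with the shortest control tails to that with the longest, the median tail was 24.3, 23.6, 22.9, 23.0 and 22.6 nt in xrn1Δ/Δ. In wild type it was 30.9, 35.4, 37.8, 39.6 and 42.1 nt. The median difference thus ran from -6.46 nt in the first bin to -19.34 nt in the last, and from -7.93 to -19.46 nt without ribosomal protein genes. Across 4302 genes the control tail had Pearson's r of -0.04 (Spearman's rho -0.12) with the xrn1Δ/Δ tail and 0.73 (rho 0.71) with the wild-type tail. These correlations are across genes, which are not independent replicates, and all 3 libraries share the same tag assay.

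**Figure D2:**
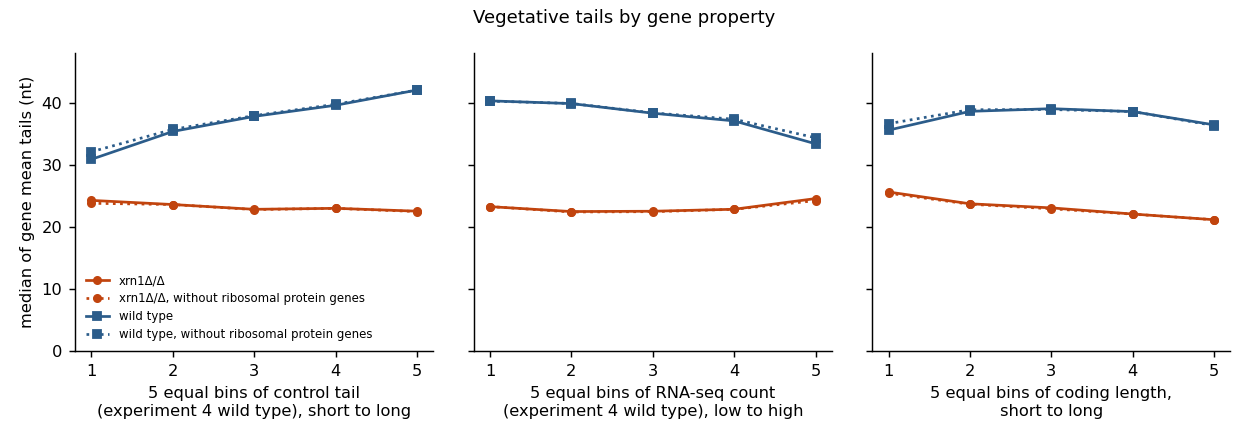
Median of gene mean tails in nt for xrn1Δ/Δ (red) and wild type (blue), over 5 equal bins of genes by tail in the degron experiment's wild-type control (left), by RNA-seq count in that control (middle) and by coding length (right). The xrn1Δ/Δ medians stay between 21.2 and 25.7 nt in every bin, while the wild-type medians increase with the control tail, up to 42.1 nt.

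The difference was smaller for abundant and for short messages. By RNA-seq count in the degron experiment's control, the median tail difference was -17.36 nt in the lowest bin and -8.58 nt in the highest. Without ribosomal protein genes it was -10.01 nt in the highest bin. By codon adaptation, with the ribosomal protein genes as the reference set, it was -16.84 nt in the lowest bin and -8.02 nt in the highest, or -9.59 nt in the highest with those genes left out. By coding length it was -9.64 nt in the bin of shortest genes, against -14.61, -16.33, -16.76 and -15.21 nt in the bins of longer genes. It was -10.74 nt in the bin of shortest genes when ribosomal protein genes were left out. In xrn1Δ/Δ the tail itself declined with coding length, with medians of 25.7, 23.8, 23.1, 22.1 and 21.2 nt from short to long. In wild type the same bins had 35.6, 38.7, 39.1, 38.6 and 36.5 nt. Weighting each gene by its tags, the mean tail was 25.0 nt in xrn1Δ/Δ and 29.1 nt in wild type, a smaller gap than between the medians over genes. Abundant messages weigh most in such a mean, and each library had its own weights. Ribosomal protein genes took 34.1% of tags in xrn1Δ/Δ and 54.3% in wild type.

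Ribosomal protein genes stood out with tails of nearly equal length in both strains. All 137 had 20 or more tags in both libraries, with a median tail of 25.8 nt in xrn1Δ/Δ and 26.3 nt in wild type and a median difference of -0.59 nt. Tails were shorter by 5 nt or more for 11 of the 137, beside 91.3% of all genes, and 52 had a longer mean tail in xrn1Δ/Δ. These 52 were among the 107 genes with any gain, which also held 5 genes of translation factors. RPL43A had 28.9 nt in xrn1Δ/Δ against 25.3 nt in wild type, RPS23B 30.4 nt against 27.1 nt, and RPS26A 26.7 nt against 24.6 nt. Of the 8 genes with the largest gain and 100 or more tags, 6 encode ribosomal proteins, and the other two are YGL188C-A (28.4 nt in xrn1Δ/Δ against 24.8 nt in wild type) and MPS2, a spindle pole body protein (26.9 nt against 24.7 nt). RPL22B stood apart from its family, with 24.4 nt in xrn1Δ/Δ against 46.4 nt in wild type. RPS9A had 26.4 nt against 37.3 nt, and both genes were named after their values were seen. Many ribosomal protein genes are near-identical pairs whose reads can be split or lost in counting, so values of single copies are uncertain.

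Other highly expressed groups lay between. Genes of translation initiation and elongation had a median tail of 26.0 nt in xrn1Δ/Δ and 31.9 nt in wild type (25 genes, median difference -5.21 nt). TEF1, which encodes elongation factor 1A and is nearly identical to TEF2, had 26.1 nt against 24.7 nt. Glycolysis and fermentation genes had 25.0 nt in xrn1Δ/Δ and 30.9 nt in wild type (20 genes, -5.84 nt). TDH3, a glyceraldehyde-3-phosphate dehydrogenase gene, had 26.1 nt against 30.2 nt, and PDC1, pyruvate decarboxylase, had 21.8 nt against 23.5 nt. Nuclear genes of oxidative phosphorylation differed by a median of -7.66 nt, heat shock chaperones by -9.86 nt, ergosterol synthesis by -9.91 nt and amino acid synthesis by -10.47 nt. Ribosome biogenesis genes (-13.65 nt), proteasome genes (-14.02 nt) and trehalose and glycogen genes (-14.82 nt) were close to the median of all genes. Genes of the general stress response (-16.37 nt), exosome and Ski factors (-17.33 nt), iron and copper genes (-17.56 nt), mitotic cyclins and exit genes (-19.39 nt) and known targets of nonsense-mediated decay (-22.04 nt) lay beyond it. Early meiotic genes, of which 9 had enough tags, differed by -27.7 nt, with medians of 23.4 nt in xrn1Δ/Δ and 51.3 nt in wild type. In the groups from translation to nonsense-mediated decay targets the medians in xrn1Δ/Δ stayed between 19.1 and 26.0 nt, while those in wild type ran from 30.9 to 44.7 nt.

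**Figure D3:**
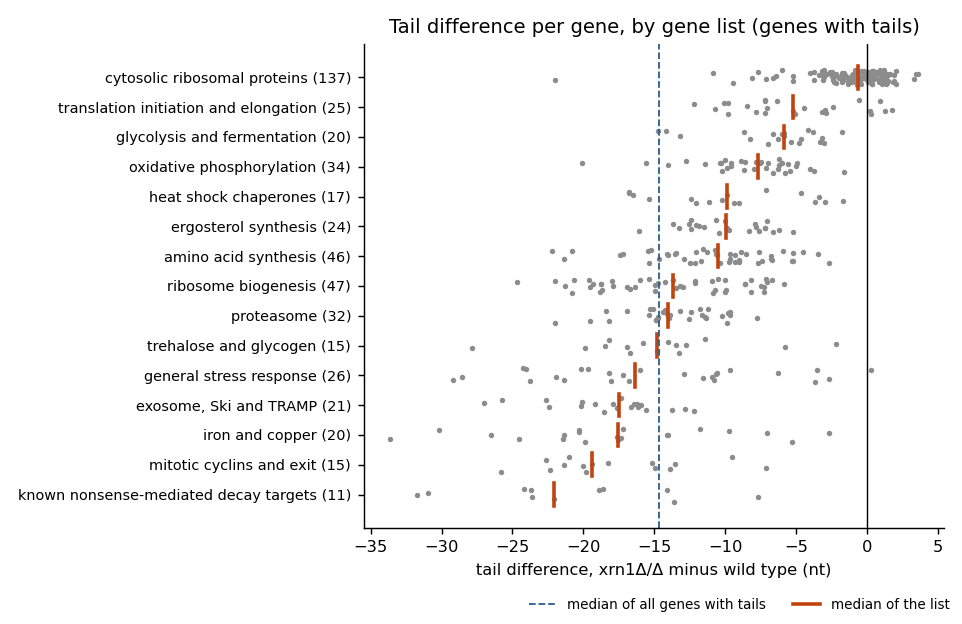
Tail difference in nt (xrn1Δ/Δ minus wild type) of each gene with 20 or more tags in both libraries, by gene list, with the number of genes in brackets, the list median in red and the median of all 5096 genes as a dashed blue line. Ribosomal protein genes centre near 0 at -0.59 nt, and known targets of nonsense-mediated decay lie lowest of the lists drawn at -22.04 nt.

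RNA levels were compared with 2 protocols that handle RNA ends differently, with RNA-seq attaching the 3' adapter before breaking the RNA and ZeroRNA after. A gene was counted as higher or lower when its scaled level differed by 2-fold or more, among genes with a mean of 10 or more counts over both strains. In RNA-seq 585 of 5435 genes were higher (10.8%) and 581 were lower (10.7%) in xrn1Δ/Δ. In ZeroRNA 601 of 4724 were higher (12.7%) and 727 were lower (15.4%). Among 4650 genes counted in both, 240 were higher in both (5.16%) and 394 were lower in both (8.47%). The log2 differences of the 2 protocols had Pearson's r of 0.75 over these genes (Spearman's rho 0.72). The labels do not say whether both protocols used RNA of the same cultures. Tag counts were higher for 911 of 5677 genes (16.0%) and lower for 843 (14.8%). For comparison, the vegetative wild type and the degron experiment's wild-type control differed by 2-fold or more for 88 genes higher and 157 lower out of 5282 in RNA-seq. On that joint scale xrn1Δ/Δ differed from its wild type for 580 genes higher and 595 lower. The split depended on the scaling: with library totals alone 1714 genes were higher and 34 lower in RNA-seq, 2138 and 122 in ZeroRNA, and 3865 and 44 in tags. It also depended on the count minimum, and with a mean of 50 counts 111 genes were higher and 506 lower in RNA-seq, 78 and 524 in ZeroRNA, and 31 and 337 in both.

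**Figure D4:**
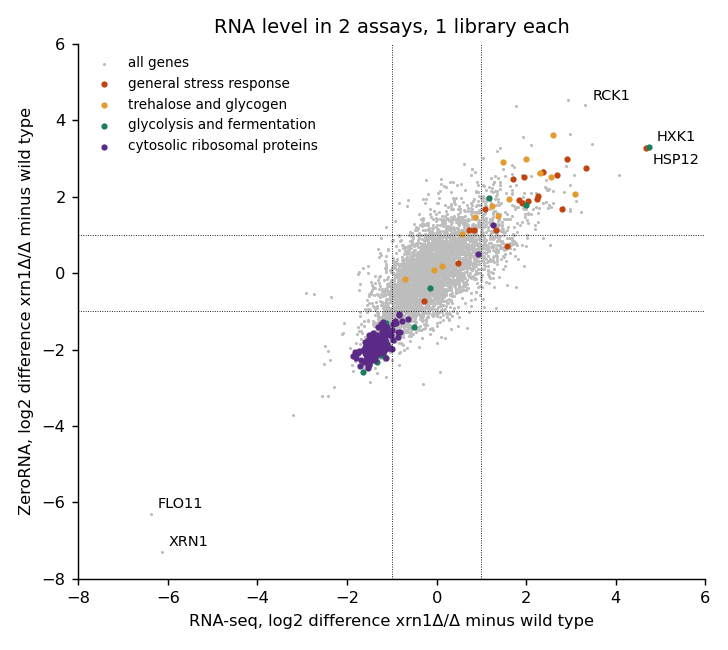
Log2 difference in RNA level (xrn1Δ/Δ minus wild type) in RNA-seq and ZeroRNA, 1 point per gene with a mean of 10 or more counts in both (4650 genes), with dotted lines at 2-fold. Stress and trehalose genes lie to the upper right, ribosomal protein and most glycolytic genes to the lower left, and FLO11 lies beside the deleted XRN1.

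Genes of the general stress response were higher in xrn1Δ/Δ. These encode chaperones, antioxidant enzymes and osmolyte enzymes that yeast induces through the activators Msn2 and Msn4 when growth slows. Of 36 such genes, 22 had enough RNA-seq counts, of which 16 were higher and none lower (median log2 1.87). In ZeroRNA 17 of 20 were higher and none lower (median 1.90), and in tags 23 of 35 were higher and 2 lower (median 1.29). A gene that is nearly silent in wild type enters such a count only where xrn1Δ/Δ raises its mean, so the share over the counted members is not that of the whole list. HSP12, a small membrane-stabilising heat shock protein, had 731 CPM (library-scaled counts) in xrn1Δ/Δ against 26.2 CPM in wild type in RNA-seq, a log2 difference of 4.67 (95% counting interval 4.17 to 5.51). In ZeroRNA it had 227 CPM against 19.5 CPM. UBI4, the polyubiquitin gene, had 297 CPM in xrn1Δ/Δ against 54.9 CPM in wild type in RNA-seq and 317 against 47.4 CPM in ZeroRNA. YGP1, a secreted glycoprotein, had 152 CPM against 21.2 CPM, and HOR7, a hyperosmolarity-responsive gene, had 1180 CPM against 167 CPM in RNA-seq. The size of such differences depended on the wild type used. Scaled jointly with the wild-type controls of the degron and Ccr4 overexpression experiments, HSP12 had 671.7 CPM in xrn1Δ/Δ and 24.2 CPM in its own wild type. Those controls had 68.1 and 129.7 CPM. UBI4 had 272.9 CPM in xrn1Δ/Δ, 50.8 CPM in its own wild type, and 72.4 and 107.7 CPM in those controls. UBI4 had one of the longest tails in wild type, 55.8 nt, against 31.7 nt in xrn1Δ/Δ. HSP12 had 22.8 nt in xrn1Δ/Δ against 22.5 nt in wild type, so it was much more abundant with nearly the same tail.

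Reserve carbohydrate genes followed. Of 17 trehalose and glycogen genes, 11 were higher and none lower in RNA-seq (median 1.42), 11 of 14 were higher and none lower in ZeroRNA (median 1.86), and 8 were higher and none lower in tags (median 0.99). All 17 were counted in RNA-seq and tags. In ZeroRNA a member nearly silent in wild type was counted only where xrn1Δ/Δ raised its mean. Of all genes 10.8% were higher in RNA-seq, 12.7% in ZeroRNA and 16.0% in tags. TSL1, a subunit of the trehalose synthase complex, had 133 CPM in xrn1Δ/Δ against 20.0 CPM in wild type in RNA-seq and 351 against 25.1 CPM in ZeroRNA. TPS2, the trehalose phosphate phosphatase, had 174 CPM against 72.4 CPM in RNA-seq and 324 against 92.1 CPM in ZeroRNA. GDB1, the glycogen debranching enzyme, had 70.5 CPM against 21.2 CPM in RNA-seq and 172 against 41.8 CPM in ZeroRNA. GPH1, glycogen phosphorylase, had 51.5 CPM in xrn1Δ/Δ against 3.74 CPM in wild type in RNA-seq. The wild-type value rests on 3 counts, so the ratio has a wide interval (log2 2.13 to 6.12).

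The activators Msn2 and Msn4 bind the stress response element, whose core is AGGGG on one strand and CCCCT on the other. The windows from 300 to 101 bases before the start codon were searched in the R64 reference genome, the assembly that sacCer3 stands for, on both strands. The core was found at least once in 34.3% of the 236 windows of genes higher in both protocols, in 14.8% of the 357 windows of genes lower in both and in 16.3% of all 5985 windows. It was present in 61.1% of the 36 stress response genes and 58.8% of the 17 trehalose and glycogen genes. Among the 12 higher genes named for the largest difference, 5 held it (HSP12, TSL1, UBI4, SPO24 and HOR7). The windows of 4 of these are printed because they carry the motif and belong to the groups that were higher, in the direction of transcription, with each core in capitals. They lie at chrVI:106956-107155 (HSP12, plus strand), chrXIII:70324-70523 (TSL1, plus strand), chrXII:65308-65507 (UBI4, minus strand) and chrXIII:774452-774651 (HOR7, plus strand).
HSP12: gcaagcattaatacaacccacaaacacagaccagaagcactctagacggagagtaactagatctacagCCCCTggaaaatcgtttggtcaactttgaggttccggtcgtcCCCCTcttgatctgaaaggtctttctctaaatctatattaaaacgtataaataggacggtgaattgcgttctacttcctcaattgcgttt
TSL1: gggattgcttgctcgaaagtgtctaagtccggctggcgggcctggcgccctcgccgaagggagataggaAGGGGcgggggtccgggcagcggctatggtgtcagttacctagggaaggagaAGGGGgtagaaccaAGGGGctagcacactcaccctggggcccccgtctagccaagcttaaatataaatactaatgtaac
UBI4: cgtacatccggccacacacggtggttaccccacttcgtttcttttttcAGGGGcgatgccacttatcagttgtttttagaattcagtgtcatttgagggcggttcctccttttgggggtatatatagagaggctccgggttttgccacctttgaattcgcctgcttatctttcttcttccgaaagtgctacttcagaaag
HOR7: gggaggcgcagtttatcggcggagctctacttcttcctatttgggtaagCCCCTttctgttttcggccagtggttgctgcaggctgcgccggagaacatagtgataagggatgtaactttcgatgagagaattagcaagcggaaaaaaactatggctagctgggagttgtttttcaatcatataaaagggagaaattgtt
The window of HSP12 holds 2 cores, that of TSL1 holds 3, and those of UBI4 and HOR7 hold 1 each. A match is a stretch of letters and not a measured binding site.

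Genes for growth on other carbon sources were also higher. Of 20 gluconeogenesis, glyoxylate and acetate genes, 7 of 13 counted in RNA-seq were higher and none lower (median 1.03), and 10 of 16 in ZeroRNA were higher with 1 lower (median 1.84). In tags all 20 were counted, and 8 were higher and 3 lower (median 0.68). Members nearly silent in wild type are counted only where xrn1Δ/Δ raises their mean, so the RNA-seq and ZeroRNA counts lean towards higher genes. PCK1, which makes phosphoenolpyruvate carboxykinase, had 235 CPM in xrn1Δ/Δ against 25.0 CPM in wild type in RNA-seq and 156 against 39.1 CPM in ZeroRNA. Its tag level differed less (log2 0.56 in tags, 3.11 in RNA-seq). ALD4, mitochondrial aldehyde dehydrogenase, had 258 CPM against 88.6 CPM in RNA-seq. HXK1, the hexokinase that glucose represses, had 370 CPM in xrn1Δ/Δ against 11.2 CPM in wild type in RNA-seq (log2 4.75, counting interval 4.10 to 6.19) and 342 against 30.7 CPM in ZeroRNA. Its wild-type level varied between experiments, on a joint scale that put xrn1Δ/Δ at 340.2 CPM, the vegetative wild type at 10.4 CPM and the wild-type controls of the degron and the Ccr4 overexpression experiments at 119.9 and 309.5 CPM. The excess of xrn1Δ/Δ over those controls was therefore much smaller than over its own wild type.

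The remaining genes named for the largest increase came from several pathways. RCK1, a protein kinase of the oxidative stress response, had 323 CPM in xrn1Δ/Δ against 30.0 CPM in wild type in RNA-seq, and 161 against 3 counts in ZeroRNA (log2 interval 3.38 to 7.25). ARO10, a decarboxylase that makes fusel alcohols, had 183 CPM against 36.2 CPM. PCL5, a cyclin that directs degradation of Gcn4, had 519 CPM against 86.1 CPM in RNA-seq and 211 against 61.4 CPM in ZeroRNA. SPO24, a small sporulation gene, had 1306 CPM against 235 CPM, with tails of 13.3 nt in xrn1Δ/Δ against 23.9 nt in wild type. YJL213W had 338 CPM against 44.9 CPM, with tails of 25.5 nt against 48.7 nt. Of these 12 named genes, 11 were above all 3 wild-type YPD libraries of the series on the joint scale, and the exception was TSL1, at 122 CPM in xrn1Δ/Δ against 171 CPM in the control of the Ccr4 overexpression experiment. HOR7 was barely above, at 1084 CPM in xrn1Δ/Δ against 155, 1054 and 795 CPM in the wild types. Being above all 3 held for 220 of the 240 genes higher in both protocols. The 12 and the 240 genes were both chosen against the vegetative wild type, which is among the 3. That part of each count was therefore largely fixed. Only the controls of the degron and Ccr4 overexpression experiments were free of that choice.

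**Figure D5:**
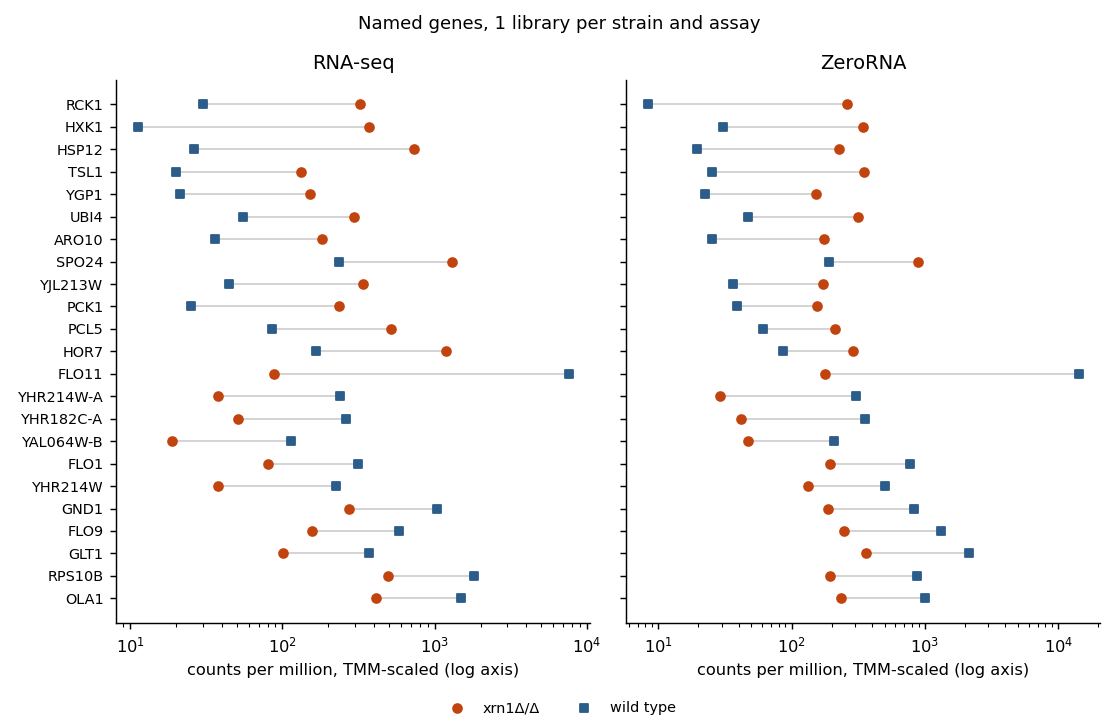
Level in CPM (log axis) of the 12 genes named as higher and of 11 named as lower (XRN1 left out) in xrn1Δ/Δ (red circles) and wild type (blue squares), in RNA-seq and ZeroRNA, 1 library each. FLO11 spans the widest range, with 88.1 CPM in xrn1Δ/Δ and 7577 CPM in wild type in RNA-seq.

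Known targets of nonsense-mediated decay, which destroys messages with early stop codons through decapping and Xrn1, were higher for 6 of 11 genes in RNA-seq and 4 of 9 in ZeroRNA, with none lower (medians 1.05 and 0.96). In tags 6 of 11 were higher and none lower (median 1.45). CPA1, an arginine synthesis gene with an upstream reading frame, had 588 CPM in xrn1Δ/Δ against 245 CPM in wild type in RNA-seq and 466 against 153 CPM in ZeroRNA. Its tail was 20.1 nt in xrn1Δ/Δ against 43.8 nt in wild type. ALR1, a magnesium transporter gene, had 157 CPM against 119 CPM in RNA-seq, with a counting interval of the log2 ratio that reached 0.00. Of 21 iron and copper genes, 6 of 18 counted in RNA-seq and 11 of 17 in ZeroRNA were higher, with 1 lower in each (medians 0.72 and 1.20). Here too a member nearly silent in wild type is counted only where xrn1Δ/Δ raises its mean. Of all genes 10.8% were higher in RNA-seq and 12.7% in ZeroRNA. SIT1, a siderophore transporter, had 109.8 CPM in xrn1Δ/Δ against 76.1 CPM in wild type in RNA-seq and 256 against 72.5 CPM in ZeroRNA. FET3, the ferroxidase of iron uptake, had 188.5 CPM against 92.1 CPM in ZeroRNA.

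Markers of mating and of early and middle meiosis summed to more in xrn1Δ/Δ, and those of late sporulation did not in RNA-seq and tags. Haploid-specific and mating genes, which a diploid should keep off, summed to 511 CPM over 23 genes in xrn1Δ/Δ and 208 CPM in wild type in RNA-seq, and to 359 CPM and 167 CPM in ZeroRNA. The pheromone gene MFA2, STE3 and FUS3 had no RNA-seq count in either strain, and single members ran up to 123 CPM in xrn1Δ/Δ and 49.9 CPM in wild type. Early meiotic genes summed to 766 CPM over 33 genes in xrn1Δ/Δ and 364 CPM in wild type in RNA-seq, and 7 of the 13 counted were higher and none lower (median 1.10). A member nearly silent in wild type is counted only where xrn1Δ/Δ raises its mean, so such a count leans towards higher genes. Middle meiotic genes summed to 386 CPM in xrn1Δ/Δ and 235 CPM in wild type, and late sporulation genes to 313 CPM and 328 CPM. In tags the late sporulation genes summed to 232 CPM in xrn1Δ/Δ and 314 CPM in wild type. Whether these markers had a part in the other differences was not tested.

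Ribosomal protein genes made up the largest group of lower genes. Of 137 genes, 122 were lower and 1 was higher in RNA-seq (median log2 -1.34), 135 were lower and 1 higher in ZeroRNA (median -1.91), and 134 were lower and none higher in tags (median -2.10). The RNA-seq median was -1.32 for the large subunit (81 genes) and -1.35 for the small subunit (56 genes). With library totals alone their medians were -0.58 in RNA-seq, -0.93 in ZeroRNA and -0.66 in tags, against 0.62, 0.89 and 1.45 for all genes, and 3, 51 and 14 of the 137 were lower by 2-fold. The count past 2-fold thus depended on the scaling, while a scaling shifts all genes nearly alike and cannot move a group relative to them. RPP2A, of the ribosomal stalk, had 715 CPM in xrn1Δ/Δ against 2341 CPM in wild type in RNA-seq, and RPS10B had 495 CPM against 1800 CPM. RPL22B was the 1 gene that was higher (log2 1.26 in RNA-seq and 1.27 in ZeroRNA) and is named for that reason, with the tail that differed most of the family. On the joint scale 135 of the 137 were below all 3 wild-type YPD libraries.

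Translation factors and glycolytic genes were lower too. Of 25 genes of initiation and elongation, 14 were lower in RNA-seq, 20 in ZeroRNA and 24 in tags, with none higher (medians -1.04, -1.47 and -1.45). With library totals alone these medians were -0.27, -0.49 and -0.01, and 0, 3 and 0 genes were lower by 2-fold. EFT1 and EFT2, near-identical genes of elongation factor 2, had 3178 CPM in xrn1Δ/Δ against 9575 CPM in wild type and 441 CPM against 1312 CPM in RNA-seq. In glycolysis and fermentation 14 of 20 were lower and 3 higher in RNA-seq (median -1.26), 15 of 19 lower and 3 higher in ZeroRNA (-1.91), and 13 of 20 lower and 3 higher in tags (-1.59). With library totals alone 8 were lower by 2-fold in ZeroRNA and 0 in the other assays. ENO2, enolase, had 6725 CPM in xrn1Δ/Δ against 20970 CPM in wild type in RNA-seq and 3644 against 21930 CPM in ZeroRNA. CDC19, pyruvate kinase, had 3983 CPM against 11440 CPM in RNA-seq. The 3 higher genes were HXK1, the glucokinase gene GLK1 (log2 1.99 in RNA-seq) and the second pyruvate kinase gene PYK2 (log2 1.18), isoenzymes that glucose keeps low. They were named after their values were seen.

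Several further groups were lower relative to the bulk of genes by less. Ribosome biogenesis genes had medians of -0.76 in RNA-seq and -0.60 in ZeroRNA, with 17 and 13 of 47 lower and none higher. NOP1, the fibrillarin of small nucleolar RNPs, had 479 CPM in xrn1Δ/Δ against 1072 CPM in wild type. Heat shock chaperones had medians of -0.83 and -0.88, with SSA2 at 3337 CPM against 8221 CPM and the Hsp90 gene HSC82 at 1758 CPM against 4797 CPM in RNA-seq. Ergosterol synthesis had -0.76 and -0.83, with ERG11 at 484 CPM against 1006 CPM. Nuclear oxidative phosphorylation genes had -0.48 and -0.69, and mitochondrial import and ribosome genes had -0.70 and -0.75. With library totals alone the ZeroRNA medians of these 5 groups turned positive, at 0.35, 0.08, 0.14, 0.27 and 0.20, below the 0.89 of all genes. Proteasome genes had medians of -0.08 in RNA-seq and 0.20 in ZeroRNA, and none of the 32 was lower by 2-fold in either.

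FLO11 (YIR019C, chromosome IX, 389572 to 393675, minus strand), a flocculin of cell adhesion and biofilm formation, was far lower in xrn1Δ/Δ. It had 88.1 CPM in xrn1Δ/Δ against 7577 CPM in wild type in RNA-seq (log2 -6.38, counting interval -6.80 to -6.07) and 177 CPM against 14300 CPM in ZeroRNA (log2 -6.30). Its tag level was also lower (log2 -5.76), with tails of 29.3 nt in xrn1Δ/Δ against 44.4 nt in wild type. On the joint scale it had 81.0 CPM in xrn1Δ/Δ, against 7007, 1274 and 4070 CPM in the 3 wild-type YPD libraries, so it varied widely among wild types and was below all of them. Of a list of 5 flocculins and their regulator FLO8, 5 of 6 genes were lower and none higher in both protocols. In tags 4 of the 6 were lower. FLO1 had 80.0 CPM in xrn1Δ/Δ against 312 CPM in wild type in RNA-seq but a tag log2 difference of 0.37. FLO9 had 157 CPM against 584 CPM, FLO5 had 245 CPM against 714 CPM and FLO10 had 89.5 CPM against 250 CPM in RNA-seq. FLO8 had a log2 difference of 0.56 in RNA-seq and is named because it was the 1 member not lower. FLO1, FLO5, FLO9, YAL064W-B, YHR214W and YHR214W-A belong to or border related subtelomeric sequences that share reads, so their separate values are uncertain.

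The other genes named as lower included enzymes of central metabolism. GND1, 6-phosphogluconate dehydrogenase of the pentose phosphate pathway, had 275 CPM in xrn1Δ/Δ against 1030 CPM in wild type in RNA-seq and 187 against 834 CPM in ZeroRNA. YHR182C-A, which the reference annotation does not list, had 51.5 CPM against 261 CPM. It had only 2 tags in xrn1Δ/Δ and 3 in wild type, too few to compare. GLT1, glutamate synthase, had 100.3 CPM against 373 CPM in RNA-seq and 363 against 2139 CPM in ZeroRNA. OLA1, an ATPase of the Obg family, had 411 CPM against 1480 CPM. All 12 named lower genes, XRN1 among them, were below all 3 wild-type YPD libraries, as were 390 of the 394 genes lower in both protocols. Here too the genes were chosen against 1 of the 3, so that part of the count was largely fixed. Genes of the mitochondrial genome were lower in ZeroRNA for all 6 counted (median -1.73) and in tags for all 6 (median -1.56), while the 2 with enough RNA-seq counts had a median of 0.11 and neither was lower by 2-fold. With library totals alone 1 of the 6 was lower in ZeroRNA (median -0.76) and 0 of the 6 in tags (median -0.24). Tags of the mitochondrial genome were few, 164 in xrn1Δ/Δ and 273 in wild type over all its genes, so the tag values weigh little. COB, apocytochrome b, whose gene overlaps other reading frames in its introns, had 329 CPM in xrn1Δ/Δ against 1305 CPM in wild type in ZeroRNA.

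Genes of the decay machinery lay on both sides of the bulk of genes. Of 23 decapping and 5' to 3' decay genes, 2 of the 22 counted in RNA-seq were higher and 3 lower, XRN1 included (median -0.20), against 10.8% and 10.7% of all genes. In ZeroRNA 2 of 21 were higher and 5 lower (median 0.07), and in tags 4 of 22 were higher and 5 lower (median -0.30). Of all genes 12.7% were higher and 15.4% lower in ZeroRNA, and 16.0% and 14.8% in tags. Of 14 genes of the Ccr4-Not and Pan complexes and poly(A) binding, none was higher and 2 were lower in each assay. Their medians were -0.51 in RNA-seq, -0.34 in ZeroRNA and -0.50 in tags. The lower share of 14.3% was near that of all genes, at 10.7%, 15.4% and 14.8% in these assays. DCP2, the decapping enzyme, had 248 CPM in xrn1Δ/Δ against 207 CPM in wild type, and DHH1, a decapping activator, had 109.8 CPM in both. EDC3, an enhancer of decapping, had 137 CPM against 176 CPM. CCR4 had 73.2 CPM in xrn1Δ/Δ against 147 CPM in wild type in RNA-seq (log2 -0.98, counting interval -1.50 to -0.53), and 182 against 335 CPM in ZeroRNA. POP2 had 125 CPM against 88.6 CPM in RNA-seq. PAB1, the poly(A) binding protein, had 894 CPM against 1896 CPM in RNA-seq and 575 against 2349 CPM in ZeroRNA, with tails of 31.0 nt in xrn1Δ/Δ and 30.7 nt in wild type. Of 21 exosome, Ski and TRAMP genes none was higher and 2 were lower in RNA-seq (median -0.28), and 2 were higher and none lower in ZeroRNA. Each 2 of 21 is 9.52%, beside 10.7% of all genes lower in RNA-seq and 12.7% higher in ZeroRNA. Tails were shorter by 5 nt or more for 16 of 20 decapping and 5' to 3' decay genes, beside 91.3% of all genes. The same held for 13 of 14 Ccr4-Not, Pan and poly(A) binding genes and for all 21 exosome, Ski and TRAMP genes. Median differences of these lists, in that order, were -11.88, -13.62 and -17.33 nt, against -14.67 nt for all genes. DCP2 had 18.3 nt in xrn1Δ/Δ against 41.8 nt in wild type, EDC3 19.2 nt against 44.7 nt and CCR4 26.4 nt against 38.5 nt.

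Across genes the difference in RNA level went with the difference in tail. In 5 equal bins of genes from the lowest to the highest ZeroRNA log2 difference, the median tail difference was -7.07, -12.99, -15.70, -17.09 and -18.87 nt. Pearson's r between the ZeroRNA log2 difference and the tail difference was -0.60 over 4304 genes (Spearman's rho -0.60), and -0.54 without ribosomal protein genes. The points share the same strains and scaling, and expression level goes with both measures, with a median log2 RNA-seq difference of 0.69 in the lowest bin of control counts and -0.83 in the highest. Its part was not tested. From the lowest to the highest bin of ZeroRNA difference the median wild-type tail was 32.6, 37.0, 38.2, 39.1 and 40.7 nt. Genes more abundant in xrn1Δ/Δ thus tended to have longer tails in wild type. SDS23, a regulator of phosphatase activity, is named for its tags against RNA-seq and had 22.7 nt in xrn1Δ/Δ against 51.8 nt in wild type. In SDS23 the tag level was far higher (log2 3.20) than the RNA-seq level (0.38) or the ZeroRNA level (0.79). The reverse was seen for CGR1, a ribosome assembly gene, with log2 -1.68 in tags and 0.58 in RNA-seq.

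The other Xrn1 comparisons of the series share no library with this pair. In the degron strain, 30 min after auxin was added to start the degradation of Xrn1, the median tail was 26.0 nt against 38.2 nt at 0 min (median difference -11.68 nt, 4747 genes). In premeiotic cells the median difference between xrn1Δ/Δ and wild type was -13.47 nt, and after 5 h in sporulation medium it was -17.55 nt. Ribosomal protein genes separated these conditions. Their median tail was 24.6 nt after 30 min of auxin against 27.2 nt at 0 min, a small difference as in the vegetative deletion. In premeiotic cells it was 23.5 nt in xrn1Δ/Δ against 39.8 nt in wild type, with 135 of 136 genes shorter by 5 nt or more. At 5 h it was 18.3 nt in xrn1Δ/Δ against 33.9 nt in wild type, with all 135 measured genes shorter by 5 nt or more. In xrn1Δ/Δ cells ribosomal protein tails were thus short in all 3 stages, while in wild type they were shorter in the vegetative library than in the other two. Whether the 3 stages differ was not tested, as each has 1 tag library per strain.

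RNA levels overlapped in part with those comparisons. After 30 min of auxin 10.5% of 5917 genes were higher by 2-fold or more and 5.04% lower. In premeiotic cells 19.7% of 5198 genes were higher and 14.3% lower in xrn1Δ/Δ, and at 5 h 17.3% of 4935 were higher and 22.4% lower. Of the 240 genes higher in both protocols in vegetative cells, 106 were higher and 6 lower after auxin (median log2 0.91, against 0.03 for all genes). Of 227 with enough counts in premeiotic cells, 57 were higher and 48 lower (median 0.11, against 0.14 for all genes), and of 210 at 5 h, 72 were higher and 36 lower (median 0.39, against -0.09). Of the 394 genes lower in both, 2 were higher and 39 lower after auxin (median -0.62). In premeiotic cells 171 of 384 were higher and 29 lower (median 0.80), and at 5 h 94 of 355 were higher and 53 lower (median 0.36). HXK1 had 345 CPM after 30 min of auxin against 19.1 CPM at 0 min, HSP12 had 187 CPM against 58.5 CPM and UBI4 had 221 CPM against 73.4 CPM. The wild-type controls of the degron and Ccr4 overexpression experiments had 119.9 and 309.5 CPM of HXK1, so its level after auxin was close to the higher control. They had 68.1 and 129.7 CPM of HSP12, and 72.4 and 107.7 CPM of UBI4. No wild-type library is labelled with a time after auxin. FLO11 had 976 CPM after auxin against 1918 CPM at 0 min. It was also lower in the deletion at the other stages, with 809 CPM in xrn1Δ/Δ against 21180 CPM in wild type before meiosis and 449 CPM against 5292 CPM at 5 h.

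The vegetative ccr4 and pop2 deletion libraries share the wild-type control with xrn1Δ/Δ, so their values stand side by side only. Median tail differences from that control were -14.67 nt in xrn1Δ/Δ, 11.26 nt in the ccr4 deletion and 4.29 nt in the pop2 deletion. For ribosomal protein genes they were -0.59, 10.46 and 4.25 nt. HSP12 differed in log2 RNA-seq by 4.67 in xrn1Δ/Δ, 3.30 in the ccr4 deletion and 5.21 in the pop2 deletion, and HXK1 by 4.75, 5.11 and 6.01. TSL1 differed by 2.59, 3.23 and 4.36. RCK1 differed by 3.32 in xrn1Δ/Δ, against -0.25 in the ccr4 deletion and 0.70 in the pop2 deletion. PCL5 differed by 2.56, against -0.62 and -0.70, and YJL213W by 2.84, against -0.85 and -0.30. FLO11 differed by -6.38 in xrn1Δ/Δ, against 0.10 in the ccr4 deletion and 0.07 in the pop2 deletion.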

How the data were processed

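The authors deposited raw counts of RNA-seq and ZeroRNA reads per gene, poly(A) tag counts per gene and the mean tail length per gene. STAR 2.5.3a, bedtools (2.26.0 for tags) and edgeR were used on sacCer3, per the submitters' processing notes. The calling of tail ends, duplicate removal and strand use: not given in the sources used here. Per the labels' protocols, mPAT selected poly(A) RNA before fragmentation, which can favour longer tails, while RNA-seq and ZeroRNA relied on depletion of ribosomal RNA. The deposited 3' bias ratio had a median over 100 nt of 0.901 in xrn1Δ/Δ and 0.893 in wild type, and over 10% of the gene 0.881 in xrn1Δ/Δ and 0.911 in wild type.

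Of 6692 genes, 6008 matched the R64 annotation. Scaling used TMM (edgeR 4.0.16 in R 4.3.3) over the 12 libraries of the same experiment (3 in all for ZeroRNA). Log2 differences used a prior count of 2, and genes needed a mean of 10 counts. Intervals are exact 95% binomial intervals of the ratio and cover counting error only. With 3 counts as a floor, the limit was 4.07 CPM in xrn1Δ/Δ and 3.74 CPM in wild type for RNA-seq. The labels do not say whether libraries came from separate cultures. The log2 step was tested on simulated data. Calculations used numpy 2.4.6, pandas 2.3.3, scipy 1.17.1 and biopython 1.88, and plots matplotlib 3.10.9.

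The comparison, its 37 gene lists and its rules were chosen with earlier results of these data known. Genes were named as the 12 higher and 12 lower with the largest difference shared by both RNA protocols (mean of 50 counts), the 8 largest tail gains and losses with 100 tags, the 4 with the most tags, the 4 largest departures of tags from RNA-seq each way, and up to 4 members of each list with the largest ZeroRNA difference. Alternatives changed the scaling, the prior count, the count and tag minimums, the tail threshold and the control.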

Additional observations from a re-analysis of the deposited data

Results flagged for a closer look

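Some genes named for a vegetative difference had an RNA-seq log2 difference of opposite sign, past 2-fold, between xrn1Δ/Δ and wild type at another stage. The differences between stages were not tested, and each stage has 1 library per strain. Among the genes higher in vegetative xrn1Δ/Δ cells, the premeiotic log2 difference was -1.80 for TSL1, -1.40 for YGP1 and -1.73 for HOR7, and the difference at 5 h in sporulation medium was -3.66 for ARO10. Among the genes lower in vegetative xrn1Δ/Δ cells, the premeiotic difference was 1.56 for YAL064W-B, 1.20 for GND1 and 1.60 for RPS10B. At 5 h it was 1.63 for RPS10B and 1.03 for FLO9. YAL064W-B and FLO9 belong to or border related subtelomeric sequences that share reads. Several of these values rest on few RNA-seq counts. Summed over both strains, premeiotic counts were 20 for YAL064W-B, 69 for GND1 and 201 for RPS10B. At 5 h they were 43 for RPS10B and 94 for FLO9.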

How the results depend on the processing

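No paired analysis was possible because each strain had 1 library per assay and no test was made; for the same reason no replicate could be left out. With library sizes alone, genes past 2-fold numbered 1714 higher and 34 lower in RNA-seq, 2138 and 122 in ZeroRNA, 3865 and 44 in tags, and 1051 and 17 in both RNA protocols. A mean of 50 counts left 111 higher and 506 lower genes in RNA-seq, 78 and 524 in ZeroRNA and 31 and 337 in both, and with no minimum beyond 1 count 959 were higher in ZeroRNA and 408 in both. RLE factors, TMM on the 2 libraries alone and prior counts of 0.5 and 5 left all 8 of these counts within 1.5 times. Tails shorter by 5 nt numbered 2114 with 200 or more tags, as fewer genes had them. Centring each library on its median gave 1133 shorter and 1151 longer. Tails longer by 5 nt numbered 52 with 5 or more tags, 1 with 50 and 0 with 200, and 16 were longer by 3 nt and 0 by 10 nt. The tag-weighted tail difference was -4.11 nt. The degron experiment's control, an alternative chosen after seeing the data, gave -16.63 nt. Of 122 values of single genes and of lists, the lists taken relative to the median of all genes, 35 moved under library sizes alone, 8 with a prior count of 0.5 and 0 with RLE factors. Not taken relative to all genes, the medians of 15 of 37 lists in RNA-seq, 11 in ZeroRNA and 16 in tags turned from negative to positive with library sizes alone, and 0 the other way.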
